A study of Mus musculus with 23 samples.

Results

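Doxorubicin was compared with no treatment 6 h after injection in the proximal small intestine of mice that had been fasted for 24 h and then refed for 6 h. Doxorubicin is an anthracycline chemotherapy, and the dose was 20 mg/kg by intraperitoneal injection. The comparison used 4 of the 23 libraries of the study, chosen by their feeding, drug and time labels. Group 1 was doxorubicin at 6 h, with 1 wild-type and 1 Ddit4-/- (knockout) library, and group 2 was untreated at 6 h, with the same genotypes. All mice were labelled male, and the whole series was poly-A selected RNA from whole tissue, so the libraries hold epithelium, muscle and stroma together. In such libraries, fewer cells of a type and less RNA per cell cannot be told apart. How the Ddit4 allele was made, and the age and strain of the mice, were not given in the sources used here. Each genotype had 1 library per group, so the wild-type and knockout libraries served as the 2 libraries of a group, and the p-values here cover nothing beyond the spread among the libraries. The wild-type doxorubicin library carries the drug in its treatment label, while its title calls it untreated. The treatment label was followed here, and results are also given without that library. The refed wild-type doxorubicin library at 2 h, used further below, has the same conflict, and its treatment label was followed too.

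Doxorubicin traps type II topoisomerases on DNA, which leaves double-strand breaks. The breaks activate the kinase ATM and stabilise the transcription factor p53, whose targets halt the cell cycle, trigger apoptosis and switch p53 off again. In the intestine the cells that respond are mainly the dividing cells of the crypts, while the villus enterocytes that supply most of the tissue's RNA no longer divide. Refeeding after a fast acts on the same tissue at the same time: insulin and mTORC1 signalling return, and the SREBP transcription factors raise the genes of sterol and fatty acid synthesis. Ddit4 encodes an mTORC1 inhibitor that fasting, stress and p53 induce.

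The 4 libraries held 11418115 to 14870906 reads in genes, and the untreated wild-type library was the shallowest of the 23. Values are reads divided by 1 size factor per library ("normalized reads"), and 1 read was worth 1.19 to 1.67 of them. Ddit4 (mm10, chromosome 10, 59949669 to 59951834, 3 exons) had 134 and 0 normalized reads in the untreated wild-type and knockout libraries and 66.9 and 4.77 in the doxorubicin libraries, so the library values matched the genotype labels. Reads of 4 Y-linked genes were present in all 4 libraries, from 1088 to 1672 in sum. Against the male label, Y-linked levels were far lower in 3 other knockout libraries (untreated fasted, refed 2 h and ad libitum, at -6.73, -7.36 and -7.36 as log2 relative to all libraries). The untreated wild-type library held pancreatic acinar transcripts. The 13 defining acinar genes summed to 183412 normalized reads there, or 0.961% of its reads, against 46.7 in the untreated knockout and 8.4 and 19.1 in the doxorubicin libraries. The villus enterocyte list (30 genes) lay at 0.28 and 0.18 untreated and 0.11 and 0.25 with doxorubicin as mean log2 level relative to all 23 libraries. Below, a pair of values is given as wild type first and knockout second, differences are doxorubicin minus untreated on the log2(value + 1) scale, ± is the standard error, and adjusted p-values are Benjamini-Hochberg values from limma.

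No gene passed the test. Of 11939 genes averaging 10 or more normalized reads over the study, limma called 0 (0%) at an adjusted p of 0.05, and the smallest adjusted p was 0.058, that of Slfn4. At an adjusted p of 0.10 there were 62 genes, 53 higher and 9 lower with doxorubicin. Without correction, 840 genes were higher (7.04%) and 599 lower (5.02%) at an unadjusted p of 0.05, and these shares are the background for the gene groups below. The edgeR quasi-likelihood test also called 0 genes, with 747 higher and 530 lower at an unadjusted p of 0.05, whereas DESeq2 on the same reads called 86 higher (0.72%) and 41 lower (0.343%). Of these 41, 11 were genes of the pancreatic acinar list, whose transcripts stood out in the untreated wild-type library. The limma count depended on single libraries: it was 187 without the untreated wild-type library, 62 without the untreated knockout library, 54 without the knockout doxorubicin library and 0 without the wild-type doxorubicin library. The pairs of the 2 genotypes had little in common across the transcriptome. The difference had the same direction in both pairs for 49.3% of genes, and its Pearson correlation between the pairs was 0.059 over 11939 genes, which share their libraries and are not independent.

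Genes of sterol synthesis and uptake were lower with doxorubicin. When membrane sterol is low, SREBP2 is cut free from the endoplasmic reticulum and switches on the enzymes of the mevalonate pathway. Of 29 tested genes of cholesterol synthesis and sterol transport, 11 were lower and 1 was higher at an unadjusted p of 0.05, with a median log2 difference of -0.47 against -0.01 over all genes. Both doxorubicin libraries lay below both untreated libraries for 16 of the 29, a pattern found in 15.8% of all genes. The count of lower members was 9 without the untreated wild-type library, 14 without the untreated knockout library, 13 without the wild-type and 10 without the knockout doxorubicin library.

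Hmgcs1, which makes the HMG-CoA that enters the pathway (chromosome 13, 119690379 to 119708260), had 3024 and 2364 normalized reads in the untreated wild-type and knockout libraries and 1351 and 1257 in the doxorubicin libraries. The groups did not overlap, and the log2 difference was -1.04 ± 0.21, adjusted p = 0.064. Fdft1, squalene synthase, had 909 and 571 normalized reads in the untreated wild-type and knockout libraries and 316 and 212 in the doxorubicin libraries, and both doxorubicin libraries were again the lower ones (-1.47 ± 0.29, adjusted p = 0.064). Mvd, the decarboxylase that closes the mevalonate steps, had 199 and 98.3 untreated against 25.1 and 52.5 treated (-1.92 ± 0.39, adjusted p = 0.064). Insig1, the SREBP target that holds SREBP in the endoplasmic reticulum, had 7825 and 4696 untreated against 1543 and 2277 treated (-1.69 ± 0.47, adjusted p = 0.17). Srebf2, which encodes SREBP2 itself, had 1673 and 1921 untreated against 1009.7 and 1181 treated (-0.71 ± 0.19, adjusted p = 0.15). None of the 5 passed the limma threshold, and Hmgcs1, Fdft1 and Mvd passed in DESeq2 with adjusted p-values of 0.0017, 0.0012 and 0.0025. The 1 higher member was Abca1, the exporter of cholesterol to HDL, with 98.6 and 209 untreated against 1065 and 460.4 treated (2.28 ± 0.87, adjusted p = 0.31).

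**Figure D1:**
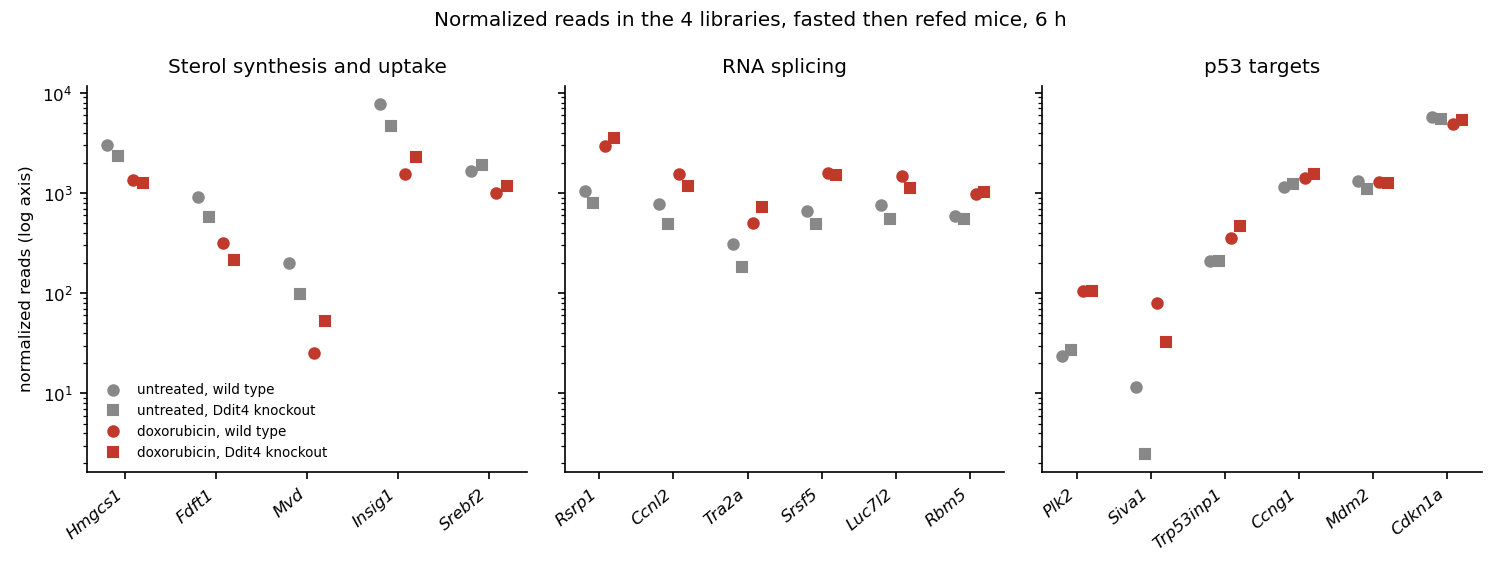
Normalized reads (log axis) of 17 genes, most of them chosen for small p-values, in each of the 4 libraries, with circles for wild type, squares for Ddit4 knockout, grey for untreated and red for doxorubicin. The red points of the 5 sterol genes drawn lie below the grey ones and those of the 6 splicing genes above them. In the whole lists, 16 of 29 sterol and 10 of 16 splicing members are separated in this way. Rsrp1, Ccnl2 and Rbm5 are not members of the splicing list and were drawn for their small p-values. Mdm2 overlaps and Cdkn1a stays between 4848 and 5695.

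The sterol genes also differed with feeding among the untreated libraries, given here as values with no test. Hmgcs1 was at 1299.8 and 1336 in the fasted wild-type and knockout libraries, at 2151 and 2151 after 2 h of refeeding, and at 3024 and 2364 after 6 h. With doxorubicin it was at 1525 and 1752 after 2 h and at 1351 and 1257 after 6 h of refeeding. Fdft1 was at 296 and 337 when fasted, 909 and 571 after 6 h of refeeding, and 316 and 212 after 6 h of refeeding with doxorubicin, so the treated libraries lay near or below the fasted ones. Over the 29 genes the mean log2 level relative to all libraries was -0.19 and -0.26 in the fasted libraries, 0.41 and 0.15 in the untreated refed 6 h libraries and -0.29 and -0.26 in the doxorubicin 6 h libraries. The untreated wild-type value was above, and the wild-type doxorubicin value below, each of the 19 other libraries (-0.26 to 0.29). Food intake of the treated mice was not given in the sources used here, and its part in the difference was not tested.

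**Figure D2:**
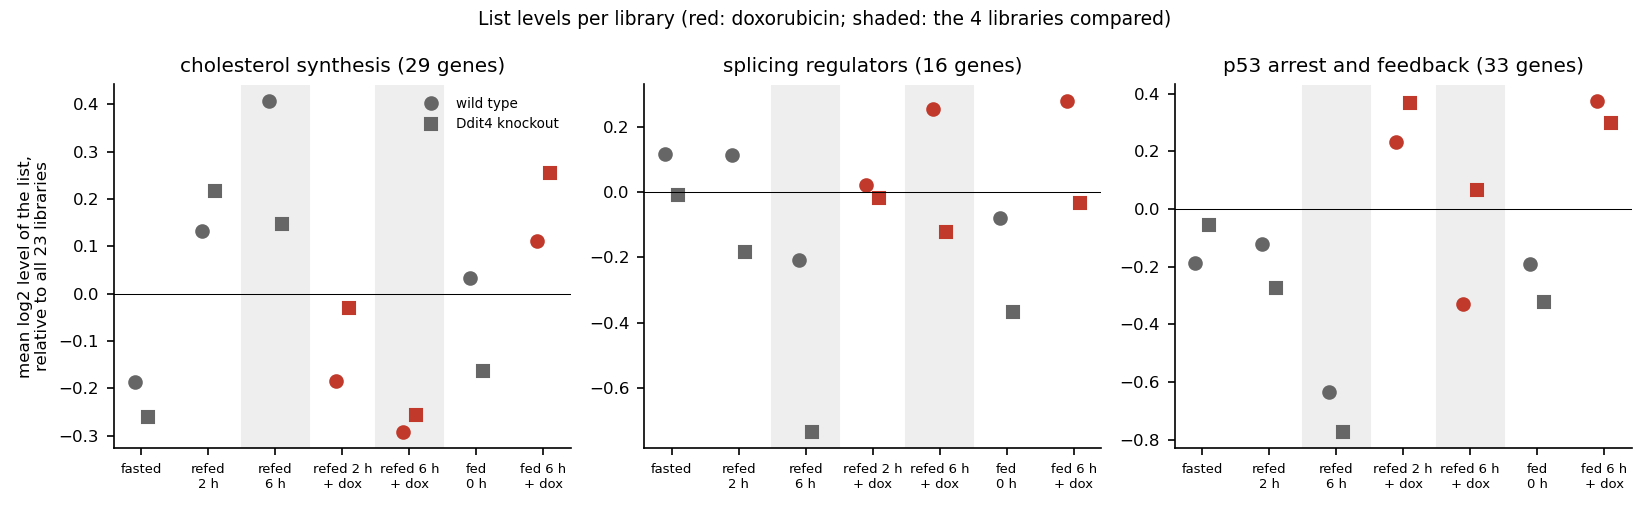
Mean log2 level of 3 gene lists (y axis, relative to the mean of all 23 libraries) in single libraries by feeding and treatment, with circles for wild type, squares for knockout and red for doxorubicin; shading marks the 4 libraries compared. Both doxorubicin 6 h points of the cholesterol list lie below 0, beside the fasted points, and both untreated 6 h points of the p53 list are the lowest shown.

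The promoters of some of these genes are shown for the elements through which sterol genes are known to be switched on together. SREBP acts with the factor NF-Y, whose binding box is CCAAT, and the sterol element searched was TCACNCCA, both on either strand and in the 250 bases before the RefSeq start (GRCm38.p6). Capitals mark the matches, where ATTGG is CCAAT read on the other strand, and each sequence ends before the first annotated exon.
Hmgcs1, chr13:119690101-119690350, plus strand: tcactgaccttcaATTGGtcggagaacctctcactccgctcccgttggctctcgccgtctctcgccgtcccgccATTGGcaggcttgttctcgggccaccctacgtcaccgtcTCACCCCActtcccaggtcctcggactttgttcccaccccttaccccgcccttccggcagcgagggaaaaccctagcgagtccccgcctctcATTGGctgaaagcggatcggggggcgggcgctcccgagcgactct
Mvd, chr8:122443423-122443672, minus strand: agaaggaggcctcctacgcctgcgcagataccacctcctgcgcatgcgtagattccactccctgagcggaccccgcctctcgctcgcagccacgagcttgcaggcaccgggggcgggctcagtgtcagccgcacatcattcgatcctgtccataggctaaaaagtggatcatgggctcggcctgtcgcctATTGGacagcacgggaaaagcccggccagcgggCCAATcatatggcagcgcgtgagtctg
Srebf2, chr15:82147019-82147180, plus strand: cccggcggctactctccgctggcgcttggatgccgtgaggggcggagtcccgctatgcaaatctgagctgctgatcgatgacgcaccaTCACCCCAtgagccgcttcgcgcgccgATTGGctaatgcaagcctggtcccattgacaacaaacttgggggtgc
Insig1, chr5:28071162-28071362, plus strand: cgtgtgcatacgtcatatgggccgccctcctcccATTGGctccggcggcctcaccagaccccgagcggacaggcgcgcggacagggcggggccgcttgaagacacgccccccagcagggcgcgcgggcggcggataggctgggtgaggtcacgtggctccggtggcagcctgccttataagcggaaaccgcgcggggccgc
Hmgcs1 held the sterol element once and CCAAT 3 times, and Srebf2 held each once. Mvd held CCAAT 2 times and Insig1 once, and neither held the sterol element. A RefSeq promoter was matched for 22 of the 29 genes, and 19 of the 22 (86.4%) held CCAAT, against 40.4% of the 9579 tested genes with a promoter and 37.5% of all 27025 genes in the set. The sterol element was in 3 of the 22 (13.6%), namely Hmgcs1, Msmo1 and Srebf2, against 4.02% of tested genes and 4.2% of all. These are matches of letters and not measured binding.

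Fatty acid synthesis, the other SREBP-regulated branch, had 1 higher and 3 lower of 16 tested at an unadjusted p of 0.05, with a median of -0.50. Acly, which makes cytosolic acetyl-CoA, had 513 and 594 untreated against 352 and 426 treated (-0.51 ± 0.18, adjusted p = 0.28). Scd1, the stearoyl-CoA desaturase, was higher, with 53.5 and 11.1 untreated against 199 and 327 treated (3.32 ± 1.37, adjusted p = 0.35), and its groups did not overlap. The count of lower members was 1 without the untreated knockout library and 1 without the wild-type doxorubicin library. Srebf1, which encodes the SREBP of this branch, overlapped between the groups at 4358 and 3570.1 untreated against 2823 and 4208 treated (-0.19 ± 0.42, adjusted p = 0.89). Scd1 is also abundant in fat tissue, and the fat list (11 genes tested) lay at -0.78 and -2.63 untreated and 0.08 and 0.17 with doxorubicin. Adipoq, a defining fat marker, had 0 reads in both untreated libraries and 9.75 and 27.4 normalized reads with doxorubicin, at least 4.27-fold higher against a floor of 3 reads per library, and the part of fat tissue in the Scd1 difference was not tested.

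The list of sugar uptake and metabolism had 0 higher and 4 lower of 22 tested, with a median of -0.34, and 2 lower without the untreated knockout library. Slc2a5, the fructose transporter GLUT5 of the brush border (chromosome 4, 150119283 to 150144169), had 10837 and 19910.1 normalized reads in the untreated wild-type and knockout libraries and 5377 and 6364 in the doxorubicin libraries (-1.33 ± 0.35, adjusted p = 0.15). Both treated libraries were below both untreated ones, although the untreated libraries themselves differed. Tkfc, which phosphorylates glyceraldehyde from fructose, had 20133 and 41967 untreated against 14873 and 19617 treated (-0.77 ± 0.22, adjusted p = 0.19). Pklr, pyruvate kinase, and Hk1, a hexokinase, had differences of -0.49 ± 0.20 and -1.21 ± 0.30 on the log2 scale. Galk1, galactokinase, is not a member of the list and was named for its small p-value. It had 754 and 597 untreated against 306 and 435 treated (-0.88 ± 0.22, adjusted p = 0.13).

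Iron handling had 0 higher and 3 lower of 14 tested, and 1 lower without the wild-type doxorubicin library. The 3 were transport genes. Tfrc, the transferrin receptor, was at 1886 and 909 untreated against 546 and 495 treated (-1.33 ± 0.29, adjusted p = 0.073). Slc40a1, ferroportin, the basolateral iron exporter, was at 771 and 498 untreated against 37.6 and 205 treated (-2.80 ± 0.80, adjusted p = 0.18), and Slc11a2, the apical importer DMT1, was at 1394 and 2079 untreated against 914 and 1299 treated (-0.64 ± 0.21, adjusted p = 0.24). The doxorubicin libraries were the lower ones for each gene, and the wild-type one was the lowest for Slc40a1 and Slc11a2.

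Tmprss15, enteropeptidase, the brush-border protease that activates trypsinogen, had 7569 and 6094 normalized reads in the untreated wild-type and knockout libraries and 3926 and 2977 in the doxorubicin libraries (-0.99 ± 0.23, adjusted p = 0.11). Alpi, intestinal alkaline phosphatase, an abundant transcript, stood at 99733 and 81642 untreated against 54927 and 59638 treated (-0.66 ± 0.28, adjusted p = 0.36). The whole enterocyte list had 0 higher and 2 lower of 30 tested and a median of -0.04, so the share lower was near the background, and 4 were higher and 1 lower without the untreated wild-type library. Fat absorption genes had 2 higher and 0 lower of 20, and 4 higher without the untreated wild-type library. Amino acid transporters had 0 higher and 2 lower of 21 tested, and 0 lower without the untreated knockout library.

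Xenobiotic metabolism had 1 higher and 5 lower of 29 tested, and 2 or 3 lower when any 1 of the 4 libraries was left out. Cyp3a11, the main drug-oxidising cytochrome of mouse enterocytes, was at 153583 and 86551 untreated against 76350.0 and 27262 treated (-1.34 ± 0.40, adjusted p = 0.20). Nr1i2, the nuclear receptor PXR that drives Cyp3a11, was on the other side, at 1270.5 and 1358 untreated against 1980.5 and 2919.7 treated (0.87 ± 0.23, adjusted p = 0.15). The NRF2 and glutathione list had 0 higher and 5 lower of 30 tested. The count was 3 without the untreated wild-type library, 3 without the untreated knockout library and 1 without the wild-type doxorubicin library. Gstm1, a glutathione transferase, was at 1814 and 2068 untreated against 851 and 903 treated, and Gpx1, a glutathione peroxidase, at 2618 and 3445 untreated against 1772 and 2047 treated.

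Endoplasmic reticulum chaperones and their regulators had 0 higher and 5 lower of 22 tested, and 3 lower without the untreated wild-type or without the knockout doxorubicin library. Hyou1, a chaperone of the stress response, was at 1886 and 2339 untreated against 1467 and 1318 treated (-0.59 ± 0.16, adjusted p = 0.17). Calr, the lectin chaperone calreticulin, was at 10150.3 and 10532 untreated against 6458 and 8339 treated (-0.49 ± 0.19, adjusted p = 0.30). Pdia4, a disulfide isomerase, was at 461 and 837 untreated against 270.2 and 477 treated (-0.79 ± 0.26, adjusted p = 0.24), and the groups overlapped for Pdia4 only among the 3.

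Genes of RNA splicing were higher with doxorubicin. The list of cold-inducible and splicing regulators had 9 higher and 1 lower of 16 tested, with a median of 0.63. The 9 were the SR proteins Srsf2, Srsf5 and Srsf6, the kinases Clk1 and Clk4 that phosphorylate SR proteins, the RNA helicase Ddx5, and Tra2a, Luc7l2 and Hnrnpdl, which bind pre-mRNA or the spliceosome. Both doxorubicin libraries lay above both untreated ones for 10 of the 16, against 16.5% of all genes. The count of higher members was 9, 7, 7 and 8 when the untreated wild-type, untreated knockout, doxorubicin wild-type or doxorubicin knockout library was left out. The list lay at -0.21 and -0.73 in the untreated libraries and 0.25 and -0.12 in the treated ones, as mean log2 level relative to all libraries. The untreated knockout value was below each of the 19 libraries outside the comparison (-0.37 to 0.43), and both treated values lay within their range. The single lower member, named as the exception, was Rbm3, a cold-shock RNA-binding protein.

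Rsrp1, an arginine/serine-rich nuclear protein (chromosome 4, 134923592 to 134927671), had 1053 and 787 normalized reads in the untreated wild-type and knockout libraries and 2954 and 3529 in the doxorubicin libraries, a 3.54-fold difference (1.83 ± 0.32, adjusted p = 0.064). Its treated values fell within those of other conditions: the untreated ad libitum libraries had 3843 and 1685, the fasted ones 2909 and 941, and the refed 2 h ones 1836 and 1575, and the untreated 6 h knockout value was the lowest of these. Ccnl2, a cyclin that binds splicing factors, had 769 and 494 untreated against 1532 and 1178 treated (1.12 ± 0.19, adjusted p = 0.064). Tra2a, which activates exon inclusion, had 308 and 184 untreated against 506 and 718 treated (1.34 ± 0.26, adjusted p = 0.064), and Srsf5, an SR protein, had 657 and 490.3 untreated against 1603 and 1506 treated (1.45 ± 0.31, adjusted p = 0.069). Luc7l2, a U1 snRNP partner, stood at 752 and 551 untreated against 1493 and 1128 treated (1.01 ± 0.21, adjusted p = 0.064). Rbm5, Pnisr and Paxbp1 also had groups that did not overlap, with log2 differences of 0.83 ± 0.15, 1.46 ± 0.27 and 1.20 ± 0.23, and Srsf6 and Clk4 had 0.93 ± 0.25 and 0.92 ± 0.23. DESeq2 passed 4 of the 16 list members, Tra2a, Srsf5, Luc7l2 and Clk4. Rsrp1, Ccnl2, Rbm5, Pnisr and Paxbp1 are not members and were named for their small p-values, so their passing in DESeq2 adds nothing to the list.

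**Figure D3:**
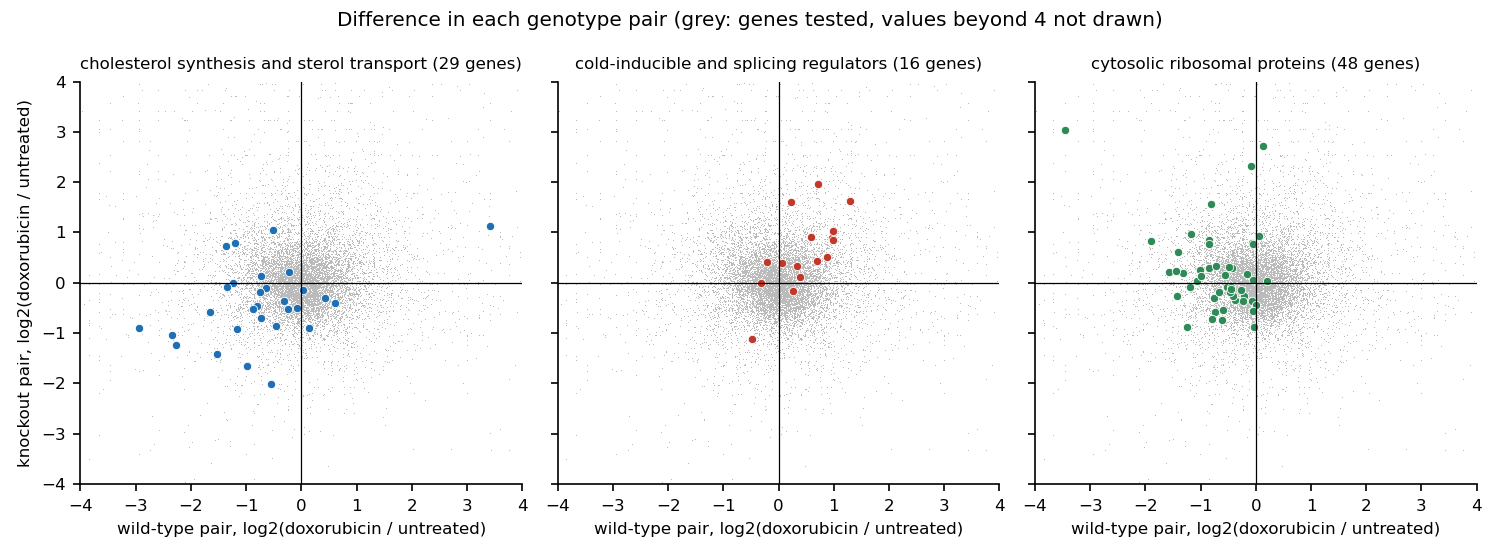
Log2 difference between doxorubicin and untreated in the wild-type pair (x axis) and in the knockout pair (y axis), with grey dots for the genes tested (those beyond 4 on either axis are not drawn) and coloured points for the members of 3 lists. Of the cholesterol genes, 18 of 29 lie in the lower left, and 12 of 16 splicing genes lie in the upper right, while ribosomal protein genes have a median of -0.58 in the wild-type pair and 0.05 in the knockout pair.

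Targets of p53 were uneven. Among 33 targets that arrest the cell cycle or feed back on p53, 9 were higher and 2 lower at an unadjusted p of 0.05, with a median of 0.32 (0.15 in the wild-type and 0.67 in the knockout pair). The count of higher members was 4 without the knockout doxorubicin library and 4 in the wild-type pair alone, against 9 in the knockout pair alone. The well-known targets Cdkn1a and Mdm2 were not among the 9, and the 2 lower members are not named here. Both treated libraries lay above both untreated ones for 12 of the 33 and below them for 4, against 16.5% and 15.8% of all genes. Cdkn1a, the p21 cell cycle inhibitor, had 5695 and 5431 normalized reads in the untreated wild-type and knockout libraries and 4848 and 5327 in the doxorubicin libraries (-0.13 ± 0.19, adjusted p = 0.83), and Mdm2, the ubiquitin ligase that degrades p53, had 1312 and 1107 untreated against 1292 and 1259 treated (0.08 ± 0.22, adjusted p = 0.92). Ccng1, a p53-induced cyclin, was slightly higher in both pairs at 1152 and 1229 untreated against 1419 and 1564 treated (0.32 ± 0.15, adjusted p = 0.41).

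Plk2, a polo-like kinase induced by p53 (chromosome 13, 110395046 to 110400844), had 23.4 and 27 normalized reads in the untreated wild-type and knockout libraries and 106 and 105 in the doxorubicin libraries. The libraries of each group were close together and the groups far apart, a 4.07-fold difference (2.02 ± 0.38, adjusted p = 0.064), and Plk2 had the smallest p of the list. Trp53inp1, a p53 cofactor, had 209 and 210.1 untreated against 354 and 468 treated (0.95 ± 0.34, adjusted p = 0.27), and Sesn2, a stress-induced mTORC1 inhibitor, had 88.6 and 99.5 untreated against 143 and 174 treated (0.74 ± 0.25, adjusted p = 0.26). Gdf15, a stress hormone that suppresses appetite, had 31.8 and 4.92 untreated against 57.1 and 94.2 treated (2.42 ± 0.77, adjusted p = 0.22), and Btg2, an antiproliferative factor, had 1436 and 1048 untreated against 1777 and 1713 treated (0.51 ± 0.22, adjusted p = 0.36). Phlda3, an AKT inhibitor, was at 18.4 and 0 untreated against 50.1 and 66.8 treated, and Psrc1, a spindle protein, had 0 reads in both untreated libraries and 13.9 and 13.1 normalized reads with doxorubicin, at least 3.11-fold higher against the floor. Eda2r, a death receptor, was at 5.01 and 8.6 untreated against 40.4 and 32.2 treated.

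Of 26 targets and BCL2-family genes of apoptosis, 5 were higher and 0 lower, with a median of 0.01, and 3 were higher without the wild-type doxorubicin library. Aen, an exonuclease of apoptotic DNA, had 13.4 and 0 untreated against 66.9 and 58.4 treated, with the untreated knockout library at 0, so that its fitted change depends on the pseudocount. Siva1, a proapoptotic adaptor, had 11.7 and 2.46 untreated against 79.4 and 32.2 treated (2.96 ± 0.64, adjusted p = 0.067). Tnfrsf10b, the TRAIL receptor, had 147 and 205 untreated against 369 and 291 treated (0.91 ± 0.32, adjusted p = 0.27), Pidd1, which builds the caspase-2 platform, had 38.4 and 12.3 untreated against 90.5 and 64.4 treated, and Bcl2, an inhibitor of apoptosis, had 20.1 and 16 untreated against 51.5 and 39.4 treated (1.28 ± 0.37, adjusted p = 0.19). Bbc3 (PUMA), the main p53 effector of crypt apoptosis, overlapped between groups at 105 and 65.1 untreated against 40.4 and 87.1 treated (-0.47 ± 0.62, adjusted p = 0.81). Bax, the pore-forming effector, was at 445 and 296 untreated against 382 and 437 treated, and Fas, a death receptor, at 411 and 418 untreated against 301 and 469.9 treated. Zmat3, an RNA-binding p53 target, was at 311 and 424 untreated against 454 and 366 treated, and Trp53 itself was at 152 and 329 untreated against 196 and 242 treated. The groups overlapped for each of these.

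A p53 half-site lay in the 250 bases before the start of 6 of the 28 arrest and feedback members with a RefSeq promoter (21.4%). The share was 7.35% of tested genes and 8.2% of all. The 6 were Ccng1, Cdkn1a, Mdm2, Polk, Ppm1d and Sesn1, and Cdkn1a and Mdm2 were not among the 9 higher members. The list holds known p53 targets, so this share describes the list and not these data. Both untreated 6 h libraries were low in the targets of this list relative to the rest of the study. The p53 arrest and feedback list lay at -0.64 and -0.77 in the untreated 6 h libraries, below each of the 19 libraries outside the comparison (-0.32 to 0.61), and at -0.33 and 0.07 with doxorubicin, where the wild-type value was also below those 19. Plk2 was at 73.1 and 42.2 in the fasted and 56.5 and 41.8 in the untreated ad libitum libraries, and at 171 and 119 in ad libitum libraries 6 h after doxorubicin.

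Among genes that meet the drug directly, Top2a, the topoisomerase of dividing cells, had 78.6 and 138 untreated against 68.2 and 90.6 treated (-0.40 ± 0.53, adjusted p = 0.81), and Top2b, the form present in non-dividing cells, had 639 and 542 untreated against 901 and 748 treated (0.48 ± 0.17, adjusted p = 0.28). Abcc1, a drug exporter, rested on 2 reads in the untreated libraries and 46 with doxorubicin, a ratio of 20.9 with a counting interval of 5.46 to 177. Abcg2, an apical exporter, was lower at 4428 and 4451 untreated against 3376 and 2754 treated (-0.54 ± 0.19, adjusted p = 0.26), as were the quinone and carbonyl reductases Nqo1 (419.6 and 243 untreated against 189 and 149 treated) and Cbr3 (66.9 and 50.4 untreated against 18.1 and 7.16 treated), which reduce anthracyclines.

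Proliferation and crypt genes showed no direction shared by all their lists, although the G2/M list leaned lower with doxorubicin. The S phase list had 1 higher and 2 lower of 35 tested (median -0.02), with 4 higher and 4 lower without the untreated wild-type library, 0 lower without the untreated knockout library, 1 lower without the wild-type doxorubicin library, and 0 higher and 7 lower without the knockout doxorubicin library. The G2/M list had 2 higher and 3 lower of 31 (median -0.19), with 1 higher and 1 lower without the wild-type doxorubicin library. Both treated libraries lay below both untreated ones for 10 of the 31 G2/M genes and above them for 4. Over all genes these shares were 15.8% and 16.5%. The G2/M median was -0.003 in the wild-type and -0.33 in the knockout pair. In the S phase list 6 of 35 lay below and 2 above in this way. In the stem cell and crypt list 3 of 17 lay below and 4 above. Mki67, the proliferation antigen, had 63.5 and 117 normalized reads in the untreated wild-type and knockout libraries and 80.8 and 81.1 in the doxorubicin libraries (-0.09 ± 0.55, adjusted p = 0.97), and Pcna, the replication clamp, had 1079.9 and 828 untreated against 889 and 976 treated (-0.02 ± 0.18, adjusted p = 0.97). These proliferation genes overlapped between the groups. The mitotic cyclin Ccna2 was at 86.9 and 30.7 untreated against 11.1 and 29.8 treated and Ccnb2 at 45.1 and 57.8 untreated against 20.9 and 13.1 treated, with both treated libraries the lower ones, whereas Ccnb1 was low in every library (18.4 and 4.92 untreated against 25.1 and 2.38 treated). Cenpe, a kinetochore motor, had 0 reads in both untreated libraries against 11.1 and 25 normalized reads with doxorubicin, at least 4.16-fold higher. Mcm5, a replication helicase subunit, was at 26.7 and 11.1 untreated against 13.9 and 42.9 treated, and Cdt1, which loads the helicase, was at 393 and 387 untreated against 260.4 and 266 treated (-0.57 ± 0.26, adjusted p = 0.40). The stem cell gene Lgr5 was at 5.01 and 18.4 untreated against 18.1 and 11.9 treated, Ascl2 at 5.01 and 4.92 untreated against 5.57 and 3.58 treated, and Olfm4, another stem cell marker, at 471 and 306 untreated against 496 and 299 treated (0.02 ± 0.63, adjusted p = 0.99). The Wnt target Axin2 was at 90.3 and 227 untreated against 283 and 314 treated (1.05 ± 0.39, adjusted p = 0.30), Sox9, of crypt and Paneth cells, at 28.4 and 60.2 untreated against 97.5 and 85.9 treated (1.12 ± 0.40, adjusted p = 0.28), and Myc at 18.4 and 25.8 untreated against 50.1 and 39.4 treated (0.99 ± 0.59, adjusted p = 0.53). The goblet list had 0 higher and 1 lower of 15 tested by the unadjusted p, with a median of 0.06. Both treated libraries lay above both untreated ones for 4 of the 15 and below them for 0. Agr2, Galnt12, Klk1 and Spink4 of that list are not reported here. Muc2, the goblet cell mucin, had 2852 and 9470.2 untreated against 10079 and 12109 treated (1.09 ± 0.52, adjusted p = 0.43), and Lyz1, the Paneth lysozyme, had 1931 and 1045 untreated against 1178 and 1950.0 treated (0.09 ± 0.48, adjusted p = 0.96). The Paneth list (20 genes) went opposite ways in the genotypes, at -0.27 and -2.01 untreated and -1.28 and -0.23 with doxorubicin.

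The clock genes of the Per phase, which repress the CLOCK and ARNTL activators, had 4 higher and 0 lower of 13 tested and a median of 0.48, with 6 higher members without the wild-type and 1 without the knockout doxorubicin library. Both treated libraries lay above both untreated ones for 6 of the 13 and below them for 2. By the unadjusted p of edgeR, and also of DESeq2, 6 members were higher and 1 was lower. Nr1d1, another named gene of the list, is not reported here. Per1 had 129 and 140.1 normalized reads in the untreated wild-type and knockout libraries and 327 and 404 in the doxorubicin libraries (1.43 ± 0.38, adjusted p = 0.15), with no overlap, and Per2 had 328 and 331 untreated against 529 and 856 treated (1.03 ± 0.34, adjusted p = 0.25). Cry2 was at 130.4 and 169.6 untreated against 205 and 346 treated, Dbp, an output factor, overlapped at 888 and 279 untreated against 458 and 1019 treated (0.46 ± 1.09, adjusted p = 0.90), and Arntl, of the opposite phase, was at 221 and 375 untreated against 265 and 143 treated (-0.56 ± 0.44, adjusted p = 0.66). Ciart, a repressor of CLOCK and ARNTL, had 0 reads in both untreated libraries and 20.9 and 29.8 normalized reads with doxorubicin, at least 5.83-fold higher. Its promoter is shown because CLOCK and ARNTL bind the E-box CACGTG, in capitals, which occurs 3 times in the 227 bases before the first annotated exon.
Ciart, chr3:95882252-95882478, minus strand: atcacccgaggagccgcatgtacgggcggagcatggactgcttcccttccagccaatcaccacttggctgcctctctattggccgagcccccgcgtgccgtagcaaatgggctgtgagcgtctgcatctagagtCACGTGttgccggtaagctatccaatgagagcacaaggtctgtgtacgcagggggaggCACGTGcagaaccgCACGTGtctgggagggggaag
The E-box was in 4 of the 10 matched promoters of the list (Ciart, Cry1, Per1 and Tef), against 9.83% of tested genes and 6.86% of all. The clock time at harvest was not given in the sources used here, and its part was not tested.

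Glucocorticoid-responsive genes had 3 higher and 0 lower of 18 tested, Per1 among them, with 2 higher without the untreated wild-type, 7 without the wild-type doxorubicin and 1 without the knockout doxorubicin library. Fkbp5, a cochaperone of the glucocorticoid receptor, had 149 and 275 normalized reads in the untreated wild-type and knockout libraries and 564 and 1208 in the doxorubicin libraries (2.02 ± 0.88, adjusted p = 0.37), and Sgk1, a kinase that regulates sodium uptake, had 2006 and 2540.2 untreated against 4657 and 9957 treated (1.59 ± 0.49, adjusted p = 0.21). Their groups did not overlap, and the knockout library was the higher one in each group. Zbtb16, another receptor target, overlapped between groups at 11.7 and 0 untreated against 9.75 and 41.7 treated. The list median was -0.03 in the wild-type and 1.43 in the knockout pair.

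Slfn4, a Schlafen gene of myeloid and interferon-exposed cells (chromosome 11, 83175186 to 83190216), had the smallest adjusted p of all genes. It had 5.01 and 0 normalized reads in the untreated wild-type and knockout libraries and 110.0 and 103 in the doxorubicin libraries, or 3 reads in the untreated libraries together and 165 in the treated ones. The ratio was 49.9, with a 95% counting interval of 16.8 to 244 that covers counting error only (5.45 ± 0.81, adjusted p = 0.058, where the size depends on the pseudocount). Itgb2l, an integrin subunit, had 18.4 and 0 untreated against 327 and 79.9 treated (5.21 ± 1.02, adjusted p = 0.064), and its size depends on the pseudocount too, with the untreated knockout library at 0. The myeloid list as a whole had 0 higher and 1 lower of 17 tested, with a median of -0.37. Interferon-stimulated genes had 5 higher and 1 lower of 33 tested, led by Oas2, a sensor of double-stranded RNA, at 8.36 and 33.2 untreated against 86.3 and 68 treated (2.12 ± 0.44, adjusted p = 0.064), while Isg15 overlapped at 1382 and 617 untreated against 759 and 1369 treated (0.14 ± 0.41, adjusted p = 0.93). The interferon count was 12 higher and 0 lower without the untreated wild-type library , 3 and 4 without the untreated knockout library, 2 and 1 without the wild-type doxorubicin library and 2 and 0 without the knockout doxorubicin library. The NF-kB and cytokine list had 1 higher and 0 lower of 19 tested, and mucosal defence genes had 0 higher and 0 lower of 14. Nfkbiz, an NF-kB cofactor of antimicrobial genes, was at 388 and 462 untreated against 962 and 2747 treated (1.94 ± 0.43, adjusted p = 0.083). The antimicrobial lectin Reg3b had 19110.4 and 71321 untreated against 73913 and 151147 treated (1.52 ± 0.74, adjusted p = 0.43) and Reg3g 2486 and 14819.8 untreated against 13781 and 16639 treated (1.32 ± 1.02, adjusted p = 0.65). Cd74, the MHC class II invariant chain, was at 1476 and 8841 untreated against 989 and 5838 treated (-0.59 ± 0.71, adjusted p = 0.79), and 8 of the 9 class II genes were lower in both pairs with 0 at an unadjusted p of 0.05, against 24.8% of all genes lower in both pairs, and 1 of the 9 had both treated libraries below both untreated ones.

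Lists of some of the other tissues in the sample are given for the libraries. The Brunner gland and gastric list (3 genes) lay at 2.835 and -0.80 untreated and -0.86 and -0.54 with doxorubicin. Red blood cell genes (4) lay at 3.15 and -0.34 untreated and 1.42 and 1.06 with doxorubicin. For these the untreated wild-type value was above each of the 19 libraries outside the comparison (-2.15 to 2.45). Smooth muscle (11 genes) had 0 higher and 3 lower of 11 tested and lay at 1.23 and 0.04 untreated and 0.04 and -0.60 with doxorubicin, with Acta2, smooth muscle actin, at 507 and 199 untreated against 162 and 68 treated. Fibroblast genes (12) lay at 0.49 and 0.20 against 0.20 and -0.59, with Col1a1, type I collagen, at 97 and 122 untreated against 33.4 and 13.1 treated. The count of lower smooth muscle genes was 0 without the untreated wild-type library, 2 without the wild-type and 1 without the knockout doxorubicin library. Fabp4, of fat and endothelium, was at 13.4 and 0 untreated against 107 and 125 treated. The part of tissue content in the other differences was not tested.

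The remaining genes with the smallest p-values belonged to no list. Higher with doxorubicin was Celsr3, an adhesion cadherin, at 35.1 and 17.2 untreated against 299 and 105 treated. Mfsd2b, a sphingosine-1-phosphate exporter, was at 15 and 11.1 untreated against 143 and 51.3 treated. The zinc finger genes Zfp950 and Zfp821 were at 114 and 78.7 untreated against 524 and 203 treated, and 11.7 and 22.1 untreated against 65.5 and 95.4 treated. In each, both treated libraries were above both untreated ones. Dqx1, a helicase-like gene, was at 707 and 725 untreated against 1213 and 1195 treated (0.75 ± 0.15, adjusted p = 0.064).

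Lower with doxorubicin was Abhd17a, a depalmitoylase, at 3917 and 3790.1 untreated against 2036 and 2452 treated (-0.79 ± 0.14, adjusted p = 0.064). Dgkz, a diacylglycerol kinase, was at 1814 and 2711 untreated against 1138 and 1461 treated, and Vps51, of endosome-to-Golgi transport, at 406 and 657 untreated against 248 and 326 treated. Cops4, of the COP9 signalosome, was at 1212 and 1101 untreated against 777 and 667 treated. The groups of these genes lay apart without overlap. Tmem252 was at 779 and 495 untreated against 117 and 185 treated, Bicdl2, a dynein adaptor, at 316 and 251 untreated against 132 and 166 treated, and Rab5if at 1001 and 779 untreated against 430.4 and 515 treated.

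**Figure D4:**
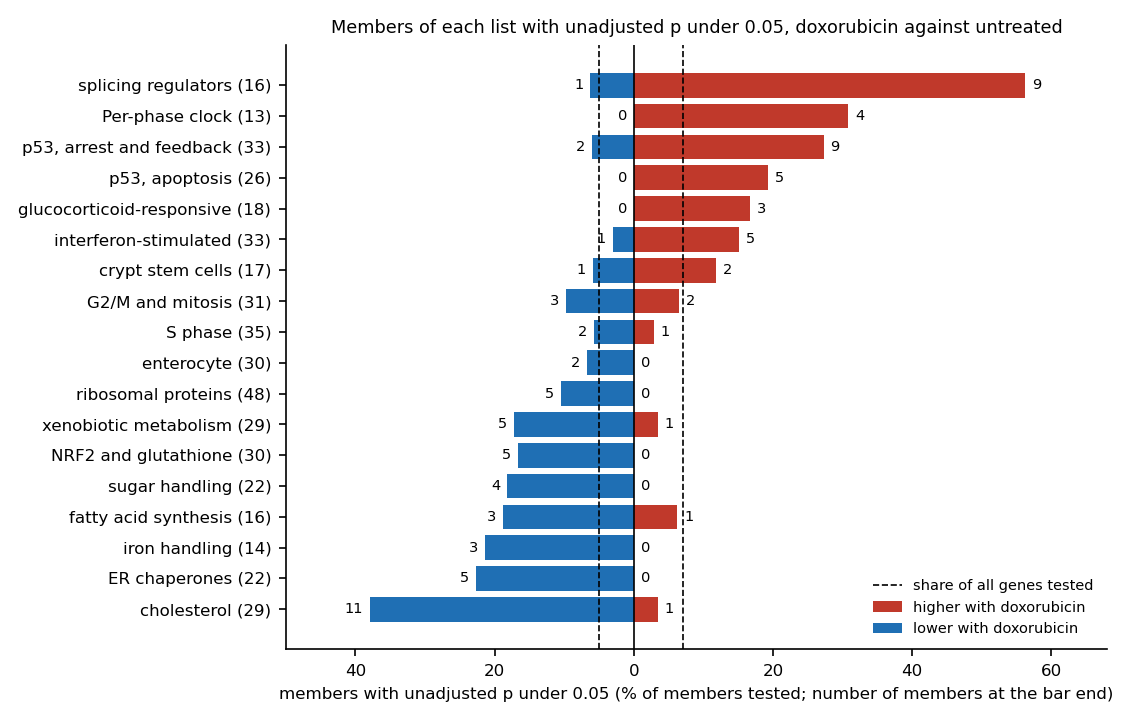
Share of the tested members of 18 lists with an unadjusted p under 0.05, higher with doxorubicin to the right and lower to the left, with the number of members at the bar end and dashed lines at the shares of all genes tested (7.04% and 5.02%). Of the 18 lists drawn, which leave out the pancreas lists (7 of 12 and 12 of 28 lower), splicing regulators reach furthest to the right with 9 of 16 and cholesterol genes to the left with 11 of 29.

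The differences of the wild-type and knockout pairs were tested against each other. This contrast has 1 library in each of its 4 arms, so genotype and library cannot be told apart. The difference was larger in the knockout than in the wild-type pair for 183 genes (1.53%) and smaller for 21 (0.176%) at an adjusted p of 0.05. Of the 183, 174 were lower with doxorubicin in the wild-type pair and higher in the knockout pair, and 17 of the 21 had the opposite pattern. Slirp, a mitochondrial RNA-binding protein, had 110.3 and 3.69 normalized reads in the untreated wild-type and knockout libraries and 2.79 and 84.7 in the doxorubicin libraries, a knockout minus wild-type difference of 9.07 ± 1.38, adjusted p = 0.01. Smim4, a mitochondrial assembly factor, had 152 and 39.3 untreated against 2.79 and 91.8 treated (6.54 ± 0.92, adjusted p = 0.0097), Dynlt1f, a dynein light chain, had 63.5 and 8.6 untreated against 2.79 and 25 treated (5.53 ± 0.80, adjusted p = 0.01), and Ppp1r15a (GADD34), which restarts translation after stress, had 76.9 and 2.46 untreated against 22.3 and 63.2 treated (5.96 ± 1.22, adjusted p = 0.028). Heatr3, of ribosome assembly, had 46.8 and 0 untreated against 47.4 and 51.3 treated (5.69 ± 1.25, adjusted p = 0.038). The lowest of the 4 libraries was the wild-type doxorubicin library for Slirp, Smim4 and Dynlt1f and the untreated knockout library for Ppp1r15a and Heatr3. In the other direction, Gpr18, a lymphocyte receptor, had 0 and 36.9 untreated against 43.2 and 42.9 treated (-5.25 ± 0.97, adjusted p = 0.019), Vps13b, a lipid transfer protein, had 91.9 and 526 untreated against 348 and 256 treated (-2.94 ± 0.37, adjusted p = 0.0049), and Hspg2, perlecan of basement membranes, had 35.1 and 133 untreated against 103 and 22.7 treated (-4.03 ± 0.91, adjusted p = 0.041). The sizes for Heatr3 and Gpr18, with a library at 0, and for Slirp, Smim4, Dynlt1f and Ppp1r15a, with a library at 2 reads, depend on the pseudocount. The sterol and splicing lists each had 0 members called here, with medians of 0.34 and 0.02 for the knockout minus the wild-type difference.

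The genes called by genotype differed in transcript length. The median length of the longest annotated transcript (GENCODE M21) was 1216 bases for 178 of the 183 and 4868 bases for the 21, against 3092 bases over 11816 genes with a length. From the shortest to the longest of 5 equal classes of all genes, the median difference went from -0.38 to 0.28 in the wild-type pair and from 0.22 to -0.14 in the knockout pair, and the mean of the pairs went only from -0.08 to 0.08. Ribosomal protein genes, which are short, had a median of -0.58 in the wild-type and 0.05 in the knockout pair. In the mean of the pairs, 39 of 48 were lower (against 6027 of 11939 genes tested), 5 of them at an unadjusted p of 0.05. That count was 2 without the untreated wild-type, 1 without the wild-type doxorubicin and 11 without the knockout doxorubicin library. Fragment size and RNA integrity per library were not given in the sources used here, and their part was not tested.

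**Figure D5:**
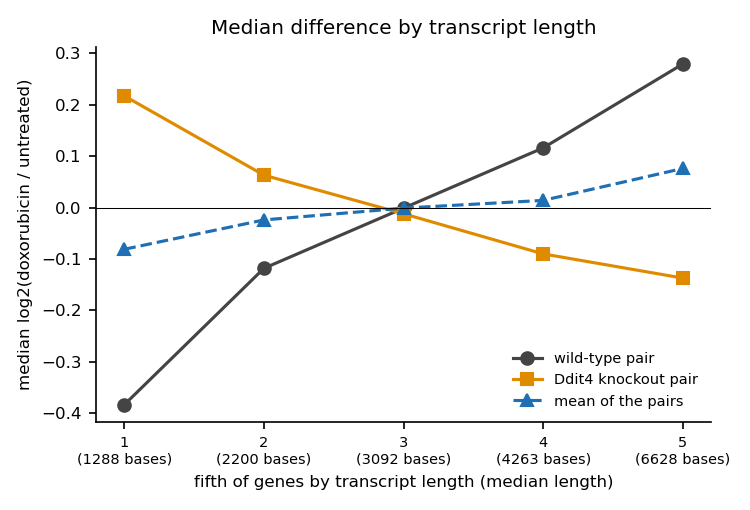
Median log2 difference between doxorubicin and untreated (y axis) in 5 equal classes of genes by transcript length (x axis, with the median length), for the wild-type pair, the knockout pair and their mean. The pairs slope in opposite directions, from -0.38 to 0.28 and from 0.22 to -0.14, and their mean stays within 0.08 of 0.

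The 6 h difference was set against that at 2 h, which has its own untreated refed libraries and shares none with the 6 h comparison. Its untreated knockout library is 1 of the 3 low in Y-linked reads, and 0 genes were called without those 3 libraries. The wild-type doxorubicin library at 2 h is titled untreated and labelled doxorubicin, and the comparison was not run without it. Tmprss15 (chromosome 16, 78953008 to 79091097) was the 1 gene of 11939 (0.00838%) whose difference changed between the times, against 21 in DESeq2. It was higher with doxorubicin at 2 h (2121 and 1668 untreated, 5941 and 4025 with doxorubicin, log2 difference 1.38) and lower at 6 h, a change of -2.37 ± 0.33 (adjusted p = 0.026). The count was 32 without the untreated wild-type and 7 without the untreated knockout library, and the adjusted p of Tmprss15 was 0.074 without the wild-type and 0.096 without the knockout doxorubicin library. Untreated levels of Tmprss15 went from 2121 and 1668 at 2 h to 7569 and 6094 at 6 h of refeeding, and treated levels from 5941 and 4025 to 3926 and 2977. The sterol list had a median difference of -0.17 at 2 h, the splicing list 0.00, and the p53 arrest and feedback list 0.51.

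The difference in ad libitum mice at 6 h, against untreated libraries at 0 h, was compared in the same way, and its untreated knockout library is also 1 of those 3. No gene differed (0% of 11939, smallest adjusted p 0.16; 491 higher and 511 lower at an unadjusted p of 0.05; edgeR 0 and DESeq2 46), and the limma count was 17 without the untreated prefasted wild-type and 7 without the untreated prefasted knockout library. Side by side, the sterol list had a median of -0.47 in prefasted and 0.09 in ad libitum mice, the splicing list 0.63 and 0.36, and the p53 arrest and feedback list 0.32 and 0.37. Hmgcs1 had log2 differences of -1.04 and 0.06, and the test of the difference gave an adjusted p of 0.31. The G2/M list had medians of -0.19 and -1.58, and -1.49 in prefasted mice at 2 h. Its untreated levels differed, at -0.79 and -0.91 after 6 h of refeeding, 2.14 and 1.52 after 2 h and 1.47 and 0.97 in ad libitum mice, against -0.95 and -1.01 in the prefasted libraries 6 h after doxorubicin.

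The treated libraries themselves were also set against those of ad libitum mice at 6 h after doxorubicin, a comparison that uses the same treated prefasted libraries as above. No gene was higher in the prefasted libraries (0%) and 1 was lower (0.00838%), with 611 and 782 at an unadjusted p of 0.05. That gene was Hsd17b6, a steroid and retinol dehydrogenase, with 827 and 1028 normalized reads in the prefasted wild-type and knockout libraries and 2532 and 3807 in the ad libitum ones, a log2 difference of -1.75 ± 0.24 (adjusted p = 0.026). The median log2 difference between the treated groups was -0.42 over the sterol list, -0.08 over the splicing list, -0.36 over the p53 arrest and feedback list and -0.59 over the G2/M list.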

How the data were processed

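Messenger RNA of whole proximal small intestine was selected with poly-T beads, made into non-directional libraries and sequenced as paired ends on NovaSeq, per the labels' protocols. Trim Galore, STAR, DESeq2 and the build mm10 are listed in the submitters' processing notes. The counting tool and annotation are not given in the sources used here. The deposited values (unit: signal) are read counts that the authors divided by 1 size factor per library. Each value lay within 0.01 of a whole number of reads after division by the value of 1 read (100% of values). Depth was 11418115 to 23428519 reads in genes per library, and 1 read limits the precision of low values. Libraries without strand cannot separate overlapping or antisense genes.

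The test was limma 3.58.1 (R 4.3.3) with a mean-variance trend on log2(value + 1), for 11939 of 16259 genes that averaged 10 or more normalized reads. The model held 12 conditions and genotype over all 23 libraries, so genotype was the pairing block. Pairs come from the genotype label, and no label names an animal, litter or day. P-values were two-sided and adjusted by Benjamini-Hochberg at 0.05. A 2 against 2 exact permutation test cannot go below p = 0.333. On the recovered reads, edgeR 4.0.16 and DESeq2 1.42.0 were alternatives. Other alternatives were the pseudocount, the filter, the scaling, array weights, the block, the libraries fitted and each library left out. The code was tested on simulated data.

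Named genes were Ddit4, the genes with the smallest p-values in each direction (15 per direction with a mean of at least 50 and the same direction in both pairs), the 5 largest per direction in each test of a difference, up to 5 members of each list and a set of known drug, crypt, clock and metabolic genes. Rbm3, Hsd17b6 and the members listed for a motif or a count were named after their values were seen. The comparison, genes and lists were chosen with earlier results of these data known. Intervals and the floor of 3 reads cover counting error only. Gene lengths and positions are from GENCODE M21 (GRCm38, mm10), which matched 99.0% of tested genes, and promoters are from RefSeq. Genes of the pancreas lists were left out of the ranking, and a few named genes are not reported here.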

Additional observations from a re-analysis of the deposited data

Results flagged for a closer look

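The doxorubicin difference at 6 h differed between the wild-type and knockout pairs by the test of the difference itself for 183 genes that were higher and 21 that were lower in the knockout pair than in the wild-type pair. Among the largest, the knockout minus wild-type difference was 9.07 for Slirp, 6.54 for Smim4, 5.96 for Ppp1r15a, 5.69 for Heatr3 and 5.53 for Dynlt1f. On the other side it was -5.25 for Gpr18, -4.03 for Hspg2, -2.94 for Vps13b, -2.92 for Cntrl and -2.67 for Clpb. Each pair has 1 library per group, so this difference rests on the spread estimated from the other conditions, and the transcript length of these genes moved with it as given above.

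The difference at 6 h was -2.37 from that at 2 h for Tmprss15, by the test of the change between the times. It was lower with doxorubicin at 6 h and higher at 2 h in both genotypes.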

How the results depend on the processing

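The 4 counts of genes called depended on the processing. Of the 87 named genes at an unadjusted p of 0.05, 43 passed an adjusted p of 0.05 in at least 1 of 19 alternatives. Their directions are not given as a sign of stability, since they were chosen for a small p, many with the same direction in both pairs, and other named genes such as Bbc3, Dbp and Arntl went opposite ways in the pairs. For the main comparison (0 genes), the count was 17 with a pseudocount of 0.5, 1 with a pseudocount of 5 and 1 with quantile normalization. It was 127 with DESeq2, 11 of them lower genes of the pancreatic acinar list. The count was 1 with only the 12 refed libraries, 3 with only the 4 libraries compared and 3 without the 3 libraries lacking Y-linked reads. Without the replicate block (no genotype term) it was 1, so the pairing changed the call of 1 gene. It was 0 with no filter, a mean of at least 50, the same median ratio, edgeR or array weights. Leaving out a single library gave 0 to 187 genes, the knockout pair alone 96 and the wild-type pair alone 177, and in these the lone library is assumed to vary like the others. For the difference by genotype (204 genes in all), the count was 132 with a pseudocount of 5, 86 with quantile normalization, 120 with edgeR, 326 with DESeq2 and 105 without the 3 libraries lacking Y-linked reads. No library could be left out there, since each defines the contrast. For the change from 2 h (1 gene), the count was 2 with a pseudocount of 5, 21 with DESeq2, 0 with array weights, 0 without the 3 libraries lacking Y-linked reads and 0 to 32 with a library left out. For the difference from ad libitum mice (0 genes), it was 46 with DESeq2 and 0 to 17 with a library left out. The cause of these changes was not tested. Depth limits genes near the floor of 3 reads, such as Slfn4, Abcc1, Ciart and Psrc1.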

Other observations

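Several other gene groups were measured in the same 4 libraries. DNA repair and checkpoint genes had 4 higher and 0 lower of 38 tested at an unadjusted p of 0.05, with a median log2 difference of 0.14, and 2 higher without the wild-type doxorubicin library. Insulin and FOXO genes had 2 higher and 0 lower of 22, with a median of 0.20. Immediate early genes had 3 higher and 0 lower of 26, with medians of -0.16 in the wild-type and 0.82 in the knockout pair. That count was 9 higher without the untreated wild-type library, 0 higher and 2 lower without the untreated knockout library, and 0 without the wild-type doxorubicin library.

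Genes of oxidative phosphorylation had 0 higher and 0 lower of 31, with medians of -0.41 in the wild-type and 0.20 in the knockout pair. There were 4 higher and 1 lower without the untreated wild-type library, 5 lower without the untreated knockout library and 5 lower without the knockout doxorubicin library. Proteasome genes had 0 higher and 2 lower of 33, with medians of -0.39 and 0.04. There were 2 higher without the untreated wild-type library, 10 lower without the untreated knockout library, and 4 lower without either doxorubicin library in turn.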
